A study of Mus musculus with 18 samples.

Results

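Livers of male C57BL/6J mice fed a high-fat diet with green tea ethanol extract (GT) were compared with livers of mice fed the same high-fat diet without it (HFD). The extract made up 0.25% of the diet by weight, feeding lasted 12 weeks, and the mice were 17 weeks old at collection. Livers of mice on a normal diet (ND) were measured alongside and are given for orientation. Each group had 3 polyA RNA sequencing libraries. The labels do not say whether a library came from 1 mouse or from a pool, so p-values measure the spread between libraries. Genes were included when they reached 1 FPKM (fragments per kilobase of transcript, scaled to the number of mapped fragments) in at least 3 of the 9 liver libraries, which left 10670 of 23474 genes. At the edge of that rule, 197 kept genes reached 1 FPKM in exactly 3 liver libraries and 265 genes left out reached it in exactly 2. Only 36 kept genes reached it in all 3 libraries of 1 diet and in no other library.

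In mice on a high-fat diet the liver stores triglyceride, and cell stress, detoxification enzymes, inflammatory proteins and matrix genes are commonly measured there as readouts of that burden. Green tea extract contains catechins, polyphenols that are taken up and conjugated in the liver. The liver also differs between the sexes: pulsatile growth hormone in males keeps some secreted proteins and P450 enzymes high in male liver and others low.

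Before the results, 4 features of the libraries need stating. To begin with, skeletal muscle transcripts were present in some livers and not in others. The summed level of 16 muscle markers was 0.674 to 57.6 FPKM in GT livers, against 0.701 to 143.0 FPKM in HFD livers and 1.17 to 3.44 FPKM in ND livers. It was high in GT 3, in HFD 2 and, to a smaller extent (31.0 FPKM), in HFD 3. The defining marker Ckm stood at 0 in GT 1, GT 2, HFD 1 and every ND liver. Next, Alb measured 21156 to 28177 FPKM in GT livers and 22791 and 27895 FPKM in HFD 1 and HFD 2 but was listed at 0 in HFD 3, and mt-Co1 was listed at 0 in GT 3 and HFD 3. These genes are used by every liver, so a listed 0 may be a failed estimate. The other hepatocyte markers were high in every library. The summed FPKM of all genes was 680168 to 881697 in GT livers, against 814680 to 930139 in HFD livers and 703182 to 791867 in ND livers. Read depth is not recorded in the table, but the steps between low FPKM values place the libraries between -0.22 (GT 2) and 0.30 (HFD 1) on the log2 scale relative to ND 1. Lastly, levels depended on transcript length in a way that moved with diet, as described next.

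Across the 10670 genes, 572 (5.36%) differed between GT and HFD livers at an adjusted p under 0.05, and most of them were lower with the extract. The test was limma on log2(FPKM + 1) with Benjamini-Hochberg adjustment, and every log2 change below is GT minus HFD on that scale, which understates changes of weakly expressed genes. In all, 122 genes (1.14%) were higher in GT livers and 450 (4.22%) were lower. At least a log2 change of 1 was reached by 46 of the higher genes and by 155 of the lower genes. The median change of all genes was -0.04. The mean ND level lay between the GT and HFD means for 79 of the 122 higher genes and for 236 of the 450 lower genes. A further 196 of the lower genes had an ND mean below both. Called genes were selected for a gap between GT and HFD livers, which makes another group likelier to fall inside it. The share over all genes was not computed, so these counts describe the called genes only.

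These counts depended on single libraries and on scaling. Of the 79 calls named below, 68 ended when HFD 2 was left out and 57 when HFD 3 was. Leaving out GT 2 ended 48 of them, GT 1 ended 30, HFD 1 ended 16, GT 3 ended 12, and single ND livers ended 13 to 18, while 10 calls held throughout. With equal FPKM totals 34 of the 79 ended, and without both HFD 2 and GT 3 55 ended. Leaving out HFD 2 left 45 calls (4 higher, 41 lower), leaving out HFD 3 left 104, and leaving out GT 2 left 125. Leaving out GT 3 raised the count to 1223 (362 higher, 861 lower). Without both HFD 2 and GT 3, which had the most muscle transcript, 244 genes were called and 177 of them were among the 572. The share of calls that were higher in GT livers was 21.3% as deposited, 32.7% after scaling to equal FPKM totals (68 higher, 140 lower) and 35.5% after quantile scaling (148 higher, 269 lower). Equal totals moved the median of all genes to 0.08, so changes near that size have no settled sign.

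Genes called lower in GT livers tended to have short transcripts. Their median transcript length was 1096 bases, against 2247 bases for genes called higher and 2037 bases for all genes. In 5 bins of rising transcript length, the median log2 change was -0.24, -0.17, -0.05, 0.04 and 0.14. The first bin held 207 of the calls lower in GT livers and the last held 27. HFD 2 departed most from the other libraries, from 0.26 for the shortest transcripts to -0.26 for the longest. A correction for length and GC content, chosen after seeing the data, left 367 calls (144 higher, 223 lower), of which 292 were among the 572. Whether the length trend contributes to any 1 gene's change was not tested, and the correction ended 24 of the 79 calls named below, which are given with their groups. List counts of 3 or more are given with it where it moved them by more than 1.5 times.

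**Figure D1:**
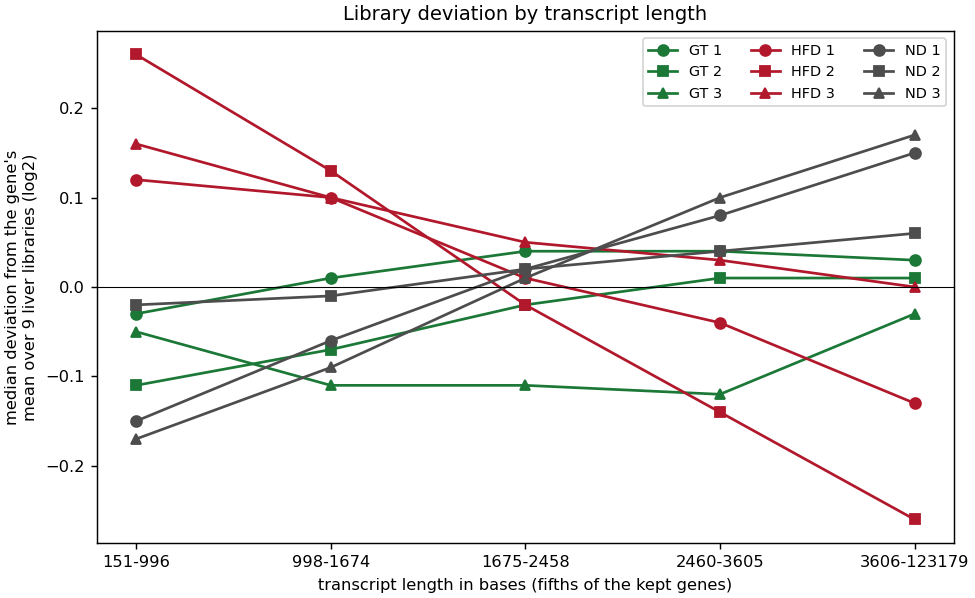
Median deviation of each liver library from the gene's mean over 9 liver libraries (y axis, log2) in 5 bins of transcript length (x axis, bases), with GT in green, HFD in red and ND in grey and 1 symbol per library number. HFD 2 runs from 0.26 in the shortest bin to -0.26 in the longest, and all HFD libraries are above all GT libraries in the shortest bin.

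Many genes of the integrated stress response were lower in GT livers. In this pathway, kinases that sense amino acid shortage, unfolded protein or other stress phosphorylate the translation factor eIF2-alpha, and the transcription factor ATF4 then induces a set of target genes. Of 22 listed genes 17 were kept, and 8 of these 17 were called lower and 0 higher, beside 4.22% of all genes called lower. Their median log2 change was -0.82, beside -0.04 for all genes. With HFD 2 left out 4 of the 17 remained called and the median was -0.81, and with equal FPKM totals 4 were called.

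Both secreted hormones on the list fell. Fgf21, a hepatic hormone that acts on fat and brain, measured 3.82, 2.97 and 5.06 FPKM in GT livers, against 15.2, 22 and 21.9 FPKM in HFD livers and 13, 8.98 and 9.83 FPKM in ND livers. Every GT liver was below every HFD and every ND liver (log2 change -2.07 ± 0.21, adjusted p = 0.00244). Gdf15, a stress-induced hormone that lowers food intake, measured 7.31, 3.31 and 3.96 FPKM in GT livers, against 37.9, 26 and 25.8 FPKM in HFD livers and 1.09, 1.05 and 1.92 FPKM in ND livers. The GT livers lay between the other diets without touching either, and ND livers were lowest (log2 change -2.44 ± 0.26, adjusted p = 0.00272). HFD 1, in which muscle markers were near 0, had the highest Gdf15 of all 9 livers. The part of muscle RNA in the Gdf15 change was not tested.

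Several transcription factors and a cell cycle inhibitor on the list fell as well. Cdkn1a, which encodes the cell cycle inhibitor p21, measured 1.23, 0.571 and 0.560 FPKM in GT livers, against 5.47, 4.84 and 12.5 FPKM in HFD livers and 4.30, 2.15 and 2.03 FPKM in ND livers. No GT liver reached the level of any HFD or ND liver (log2 change -2.18 ± 0.32, adjusted p = 0.00764). Cebpb, a transcription factor of the liver's stress and acute phase responses, measured 11.3, 10.0 and 12.9 FPKM in GT livers, against 24.4, 25.5 and 36.6 FPKM in HFD livers and 7.66, 8.15 and 7.80 FPKM in ND livers. ND livers were lower still than GT livers (log2 change -1.25 ± 0.17, adjusted p = 0.00712). Atf5, an ATF4-related factor, measured 70.4, 95.3 and 67.5 FPKM in GT livers, against 149, 166 and 161 FPKM in HFD livers and 238, 246 and 164 FPKM in ND livers, so its highest values were in 2 ND livers (log2 change -1.04 ± 0.20, adjusted p = 0.0198). Trib3, a pseudokinase that dampens ATF4 signalling, measured 3.51, 4.10 and 3.34 FPKM in GT livers, against 6.74, 7.89 and 6.96 FPKM in HFD livers, without overlap (log2 change -0.82 ± 0.15, adjusted p = 0.0149).

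The levels of Nupr1, a small stress-induced chromatin protein, were low in every group, at 0.770, 0.820 and 0.486 FPKM in GT livers, against 1.34, 3.04 and 2.82 FPKM in HFD livers (log2 change -0.97 ± 0.20, adjusted p = 0.0260). Vldlr, a lipoprotein receptor induced through ATF4, measured 1.17, 1.31 and 1.37 FPKM in GT livers, against 2.56, 2.14 and 4.07 FPKM in HFD livers (log2 change -0.75 ± 0.17, adjusted p = 0.0391). Atf3, another stress-induced factor, did not pass, with 0.870, 0.653 and 0.451 FPKM in GT livers, against 1.26, 2.14 and 2.69 FPKM in HFD livers and a log2 change of -0.85 ± 0.25, adjusted p = 0.0724. Chac1, a glutathione-degrading ATF4 target, also did not pass and its groups overlapped, with 1.61, 1.47 and 0.656 FPKM in GT livers, against 0.800, 1.02 and 2.24 FPKM in HFD livers and a log2 change of -0.05 ± 0.24, adjusted p = 0.930. The sign for Chac1 turned positive under both other scalings. Calls for Fgf21, Gdf15, Cdkn1a and Cebpb held when any 1 of the 9 libraries was left out. Calls for Atf5, Trib3, Nupr1 and Vldlr ended without HFD 2 (adjusted p 0.0686 to 0.129) and without HFD 3 (0.0504 to 0.0838). Without GT 1 the calls for Atf5, Nupr1 and Vldlr ended (0.054 to 0.0886), and without GT 2 those for Nupr1 and Vldlr (0.0543 to 0.0956). Vldlr also ended without HFD 1 (0.0575) and without each ND library in turn (0.0509 to 0.0597), and the call for Nupr1 ended with the length and GC correction (0.0823).

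The CARE motif that ATF4 complexes bind, TTGCATCA, was searched for on both strands in the 250 bases before each RefSeq gene start, after these values had been seen. It was found in 260 of 32851 promoters (0.791%) and in 5 of the 16 kept stress genes that had a promoter sequence, namely Atf3, Chac1, Fgf21, Nupr1 and Vldlr. That share describes the genes listed and is not a result about the extract. The sequences around 4 of these motifs are shown because the genes include the strongly lowered hormone Fgf21 and members that changed less. They come from RefSeq on build GRCm38.p6, read 5′ to 3′ on the gene's strand, with the motif in capitals. Fgf21 lies at chr7:45615587-45615664 (minus strand), Nupr1 at chr7:126625538-126625615 (minus), Vldlr at chr19:27216785-27216862 (plus) and Atf3 at chr1:191183401-191183478 (minus). The first motif base lies 139, 110, 200 and 110 bases upstream of the start in that order. A match in letters is a description and does not show binding.
Fgf21: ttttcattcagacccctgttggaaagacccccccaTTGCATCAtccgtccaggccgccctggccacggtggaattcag
Nupr1: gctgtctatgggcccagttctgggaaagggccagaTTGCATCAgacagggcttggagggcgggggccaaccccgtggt
Vldlr: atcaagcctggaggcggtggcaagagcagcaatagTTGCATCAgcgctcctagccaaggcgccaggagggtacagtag
Atf3: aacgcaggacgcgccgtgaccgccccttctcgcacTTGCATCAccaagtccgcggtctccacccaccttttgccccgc

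Chaperone genes of the endoplasmic reticulum had changes of the opposite sign, although only 1 of them passed the test. These proteins fold secreted proteins and are induced by the unfolded protein response through ATF6 and XBP1. All 22 listed genes were kept, 21 had a positive log2 change, and the median was 0.60, beside 45.1% positive and a median of -0.04 over all genes. The libraries of GT and HFD livers did not overlap, with GT higher, for 12 of the 22, beside 8.59% of all genes. Xbp1, the transcription factor of the pathway, was the member called, at 141, 171 and 181 FPKM in GT livers, against 94.2, 83.9 and 78.6 FPKM in HFD livers and 92.4, 80.7 and 90.9 FPKM in ND livers. GT livers lay above HFD and ND livers, which covered the same range (log2 change 0.93 ± 0.16, adjusted p = 0.0133). That call ended without HFD 2 (adjusted p = 0.0698) and without HFD 3 (0.0551).

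Hspa5, the chaperone BiP, measured 295, 339 and 437 FPKM in GT livers, against 252, 195 and 181 FPKM in HFD livers and 239, 157 and 207 FPKM in ND livers and did not pass (log2 change 0.76 ± 0.21, adjusted p = 0.0634). Pdia6, a disulfide isomerase, measured 85.1, 99.8 and 118 FPKM in GT livers, against 73, 64 and 56.6 FPKM in HFD livers (log2 change 0.63 ± 0.18, adjusted p = 0.0689). Dnajb11, a cochaperone of BiP, measured 39, 45.1 and 49.7 FPKM in GT livers, against 33.9, 30.5 and 25 FPKM in HFD livers (log2 change 0.57 ± 0.16, adjusted p = 0.0692). For these 3 genes GT and HFD livers did not overlap, yet none reached the threshold. Hsp90b1, the chaperone GRP94, measured 92.7, 127 and 75.6 FPKM in GT livers, against 62.4, 35.8 and 50.6 FPKM in HFD livers and 97.9, 47.8 and 100.2 FPKM in ND livers, so 2 of its ND livers were as high as GT livers (log2 change 0.98 ± 0.31, adjusted p = 0.0890). Creld2, a secreted chaperone, overlapped between GT and HFD livers, at 23.9, 29.1 and 50.5 FPKM in GT livers, against 26.2, 20.1 and 11.1 FPKM in HFD livers (log2 change 0.82 ± 0.32, adjusted p = 0.149).

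The ERSE motif of this pathway, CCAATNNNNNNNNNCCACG, was searched for in the same windows and on both strands, again after the values had been seen. It was found in 37 of 32851 promoters (0.113%) and in 9 of the 19 chaperone genes with a promoter sequence. These were Calr, Canx, Creld2, Derl3, Dnajc3, Hsp90b1, Hspa5, Pdia6 and Syvn1, none of them called. Here too the share describes the genes listed and is not a result about the extract. The sites of 4 of them are shown to set beside the CARE sites above, since both groups belong to stress pathways and their list medians had opposite signs. Hspa5 lies at chr2:34771990-34772078 (plus strand), Pdia6 at chr12:17266456-17266544 (plus) and Creld2 at chr15:88819485-88819573 (plus). Hsp90b1 has 2 sites on the minus strand, at chr10:86705603-86705691 and chr10:86705498-86705586. Capitals mark the motif, which is in reverse orientation in Creld2 and in the second Hsp90b1 site.
Hspa5: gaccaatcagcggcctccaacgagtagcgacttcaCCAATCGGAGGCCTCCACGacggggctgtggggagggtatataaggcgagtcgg
Pdia6: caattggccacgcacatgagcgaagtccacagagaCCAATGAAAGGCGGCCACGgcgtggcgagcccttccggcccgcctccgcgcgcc
Creld2: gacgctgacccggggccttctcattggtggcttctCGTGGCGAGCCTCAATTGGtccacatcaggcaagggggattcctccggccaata
Hsp90b1 site 1: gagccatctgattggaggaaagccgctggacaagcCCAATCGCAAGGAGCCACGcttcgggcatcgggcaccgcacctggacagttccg
Hsp90b1 site 2: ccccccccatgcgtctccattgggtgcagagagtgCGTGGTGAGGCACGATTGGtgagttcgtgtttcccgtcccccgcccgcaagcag

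**Figure D2:**
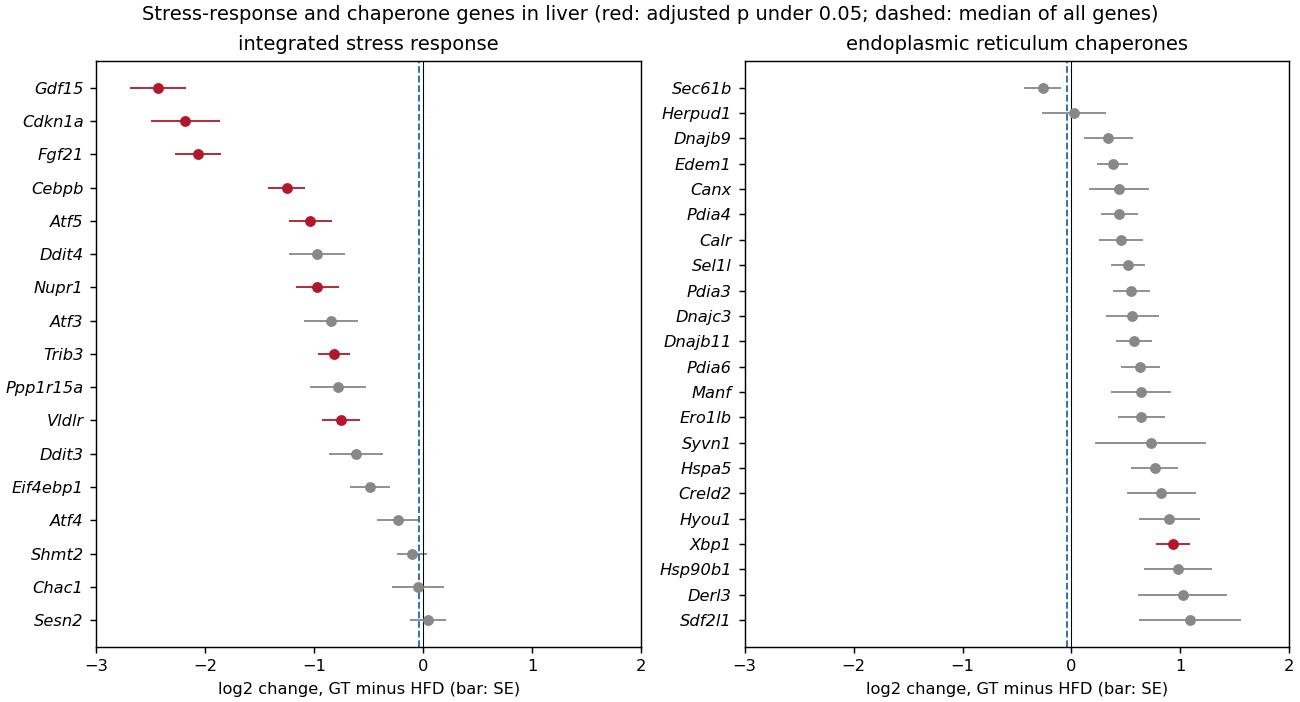
Log2 change, GT minus HFD (x axis, on log2(FPKM + 1); bars are standard errors), of every kept gene of the integrated stress response list (left, 17 genes) and the endoplasmic reticulum chaperone list (right, 22 genes); red points passed an adjusted p of 0.05 and the dashed line is the median of all genes. The stress genes reach down to -2.44 for Gdf15, and 21 of the 22 chaperone genes lie above 0.

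Several male-biased liver genes were higher in GT livers than in HFD livers. Of 26 listed genes 25 were kept, 6 were called higher and 0 lower (beside 1.14% of all genes called higher), and the median log2 change was 0.74. The 6 were Hsd3b5, Serpina1e, Cyp4a12b, C6, C8a and C8b. Without HFD 2, 1 of the 25 was called and the median stayed at 0.74. Without HFD 2 and GT 3, limma called 0 of the 25, with 10 at an unadjusted p under 0.05, and the median was 0.80.

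Hsd3b5, a male-specific steroid-metabolising enzyme, had the largest rise of all named genes, at 16.9, 95.1 and 87.9 FPKM in GT livers, against 2.58, 0.185 and 0.124 FPKM in HFD livers and 54.5, 49.1 and 80.0 FPKM in ND livers. GT 1 was the lowest GT liver and HFD 1 the highest HFD liver, with no overlap, and GT livers spanned the ND range (log2 change 4.99 ± 0.67, adjusted p = 0.00932). Serpina1e, an alpha-1-antitrypsin copy, measured 234, 922 and 845 FPKM in GT livers, against 109.9, 80.5 and 26.5 FPKM in HFD livers, and ND livers stood at 507 to 1148 FPKM (log2 change 3.18 ± 0.64, adjusted p = 0.0288). Cyp4a12b, a fatty acid hydroxylase of male liver, measured 45.1, 41.9 and 42.5 FPKM in GT livers, against 23.1, 6.98 and 2.72 FPKM in HFD livers and 71.2, 66.2 and 81.2 FPKM in ND livers (log2 change 2.30 ± 0.50, adjusted p = 0.0317). The GT livers of Cyp4a12b were close together, while HFD livers ran over a wide range.

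The major urinary proteins, pheromone carriers made in male liver, included Mup9 at 7423, 9866 and 8756 FPKM in GT livers, against 5295, 3239 and 1435 FPKM in HFD livers (log2 change 1.57 ± 0.40, adjusted p = 0.0478) and Mup8 (log2 change 1.79 ± 0.36, adjusted p = 0.0254). Serpina1e, Cyp4a12b and the Mup genes have near-identical copies among which reads may have been split, so the single gene is uncertain. Egfr, the epidermal growth factor receptor, measured 34.8, 39.8 and 111 FPKM in GT livers, against 18.1, 10.9 and 8.42 FPKM in HFD livers and 59.8, 44.6 and 74.6 FPKM in ND livers, with GT 3 far above the other GT livers (log2 change 2.09 ± 0.40, adjusted p = 0.0214). Egfr and the Mup genes are not on the list. The terminal complement genes on it encode parts of the membrane attack complex. C8b measured 62.2, 84.9 and 55.3 FPKM in GT livers, against 31.7, 19.9 and 14.4 FPKM in HFD livers and 122, 87.6 and 138 FPKM in ND livers (log2 change 1.62 ± 0.28, adjusted p = 0.0144), C6 had a log2 change of 1.41 ± 0.30, adjusted p = 0.0276, and C8a had one of 0.74 ± 0.19, adjusted p = 0.0468.

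Some female-biased genes were lower in GT livers. Only 10 of 26 reached the inclusion level in these male livers. Of these 10, 2 were called lower (beside 4.22% of all genes) and 0 higher, and the median log2 change of the 10 was -0.40. Cyp2b9, a P450 enzyme of female liver, had the largest fall of all named genes, at 15.9, 3.75 and 2.64 FPKM in GT livers, against 50.5, 103 and 132 FPKM in HFD livers and 0.999, 4.42 and 0.966 FPKM in ND livers. HFD livers were many times above ND livers, and GT livers lay near the ND range except for GT 1 (log2 change -3.75 ± 0.62, adjusted p = 0.0153). Cyp17a1, a steroid hydroxylase, measured 10.9, 7.67 and 5.31 FPKM in GT livers, against 15.1, 22.1 and 35.4 FPKM in HFD livers and 20.8, 24 and 16.2 FPKM in ND livers, and ND livers lay within the HFD range (log2 change -1.46 ± 0.30, adjusted p = 0.0262). Cyp2a4, a steroid hydroxylase with a close copy, measured 1.33, 0.963 and 0.721 FPKM in GT livers, against 2.48, 16.4 and 27.5 FPKM in HFD livers and just missed the threshold (log2 change -2.59 ± 0.63, adjusted p = 0.0503). Cyp2a22 also missed it (log2 change -1.33 ± 0.39, adjusted p = 0.0721).

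Of the 11 calls in these sex-biased and complement genes, 10 ended without HFD 2 (adjusted p 0.052 to 0.16), 9 without GT 2 (0.05 to 0.13) and 8 without HFD 3 (0.0544 to 0.132). The call for Hsd3b5 held without HFD 2 and, separately, without HFD 3 and ended without GT 2. The call for C8a also ended with the length and GC correction (0.107). All 11 ended when the muscle-rich HFD 2 and GT 3 were both left out (adjusted p 0.0542 to 0.223), with the signs kept (Hsd3b5 4.37, Cyp2b9 -3.21). In most of these genes HFD 1 was the HFD liver nearest to the GT range.

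**Figure D3:**
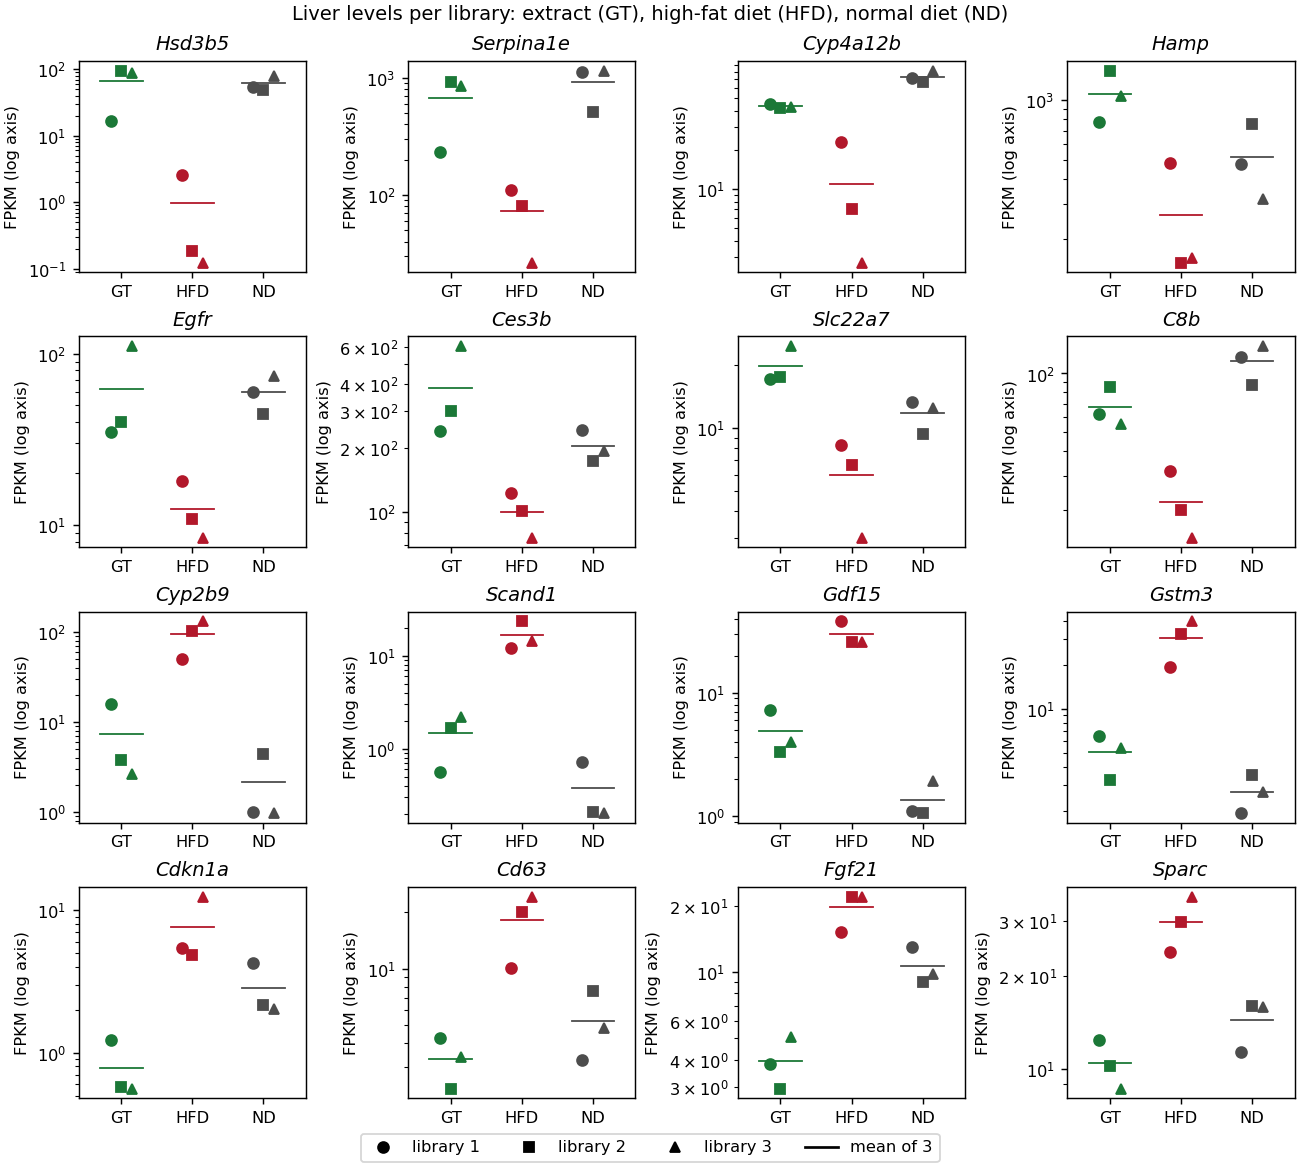
FPKM in each of the 9 liver libraries (log y axis; symbols give the library number, lines the mean of 3) for 8 genes called higher and 8 genes called lower in GT livers, with GT, HFD and ND from left to right in every panel. No GT library overlaps an HFD library in any of the 16 panels, which was a condition for choosing every gene but Sparc. In each of the upper 8 panels HFD 1 is the HFD library closest to GT.

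Glutathione transferases and other NRF2 targets were among the genes lower in GT livers. NRF2 is the transcription factor that induces glutathione transferases and other antioxidant enzymes when its inhibitor KEAP1 is modified by electrophiles. Of 32 listed targets 29 were kept, 9 were called lower and 0 higher (beside 4.22% of all genes called lower), and the median log2 change was -0.59. With the length and GC correction 4 of the 29 were called lower, with quantile scaling 5, with equal FPKM totals 3, and without HFD 2 only 1.

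Gstm3, a glutathione transferase, measured 6.48, 3.25 and 5.36 FPKM in GT livers, against 19.3, 32.5 and 39.8 FPKM in HFD livers and 1.92, 3.51 and 2.67 FPKM in ND livers. GT 2 was below ND 2, GT 1 and GT 3 were above all ND livers, and every GT liver was well below every HFD liver (log2 change -2.37 ± 0.28, adjusted p = 0.00526). Its relative Gstm1 was far more abundant, at 442, 339.8 and 448 FPKM in GT livers, against 827, 1197 and 1222 FPKM in HFD livers and 234, 302 and 237 FPKM in ND livers (log2 change -1.39 ± 0.20, adjusted p = 0.00728), and Gstm2 fell too (log2 change -1.36 ± 0.23, adjusted p = 0.0144). Gsta1 measured 10.8, 2.43 and 3.96 FPKM in GT livers, against 11.8, 51.5 and 66.5 FPKM in HFD livers, where GT 1 and HFD 1 were nearly equal (log2 change -2.61 ± 0.61, adjusted p = 0.0447). Copies of the Gsta and Gstm genes share sequence, so their separate values are uncertain.

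Ftl1, the ferritin light chain that stores iron, measured 1652, 1394 and 1442 FPKM in GT livers, against 2320.4, 3277 and 2486 FPKM in HFD livers (log2 change -0.84 ± 0.20, adjusted p = 0.0429). Nqo1, a quinone reductase often used as the marker of NRF2 activity, overlapped by GT 1 and did not pass, at 7.35, 5.09 and 3.99 FPKM in GT livers, against 6.99, 9.99 and 10.9 FPKM in HFD livers (log2 change -0.68 ± 0.23, adjusted p = 0.107). Of these calls, only that for Gstm3 held with any 1 library left out.

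Targets of the drug-sensing receptors CAR, PXR and AHR did not move together. Of 24 kept genes 1 was higher and 2 were lower (beside 1.14% and 4.22% of all genes), with a median log2 change of 0.01. The lower ones were Cyp2b9 and Gadd45b, a growth arrest protein induced by CAR, at 0.785, 0.526 and 0.613 FPKM in GT livers, against 3.71, 2.62 and 3.10 FPKM in HFD livers and 2.33, 3.17 and 2.70 FPKM in ND livers. GT livers were the lowest, and ND and HFD livers overlapped (log2 change -1.33 ± 0.15, adjusted p = 0.00462), and the call held in each of the 9 fits with a library left out. The higher one was Cyp2c54, a P450 with close copies, at 181, 210.2 and 206 FPKM in GT livers, against 129.6, 72.3 and 29.8 FPKM in HFD livers (log2 change 1.59 ± 0.39, adjusted p = 0.0447).

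Transport and ester hydrolysis added a few genes. Ces3b, a carboxylesterase, measured 242, 299 and 607 FPKM in GT livers, against 123, 101 and 75.6 FPKM in HFD livers and 243, 175 and 194 FPKM in ND livers (log2 change 1.84 ± 0.31, adjusted p = 0.0144). It was the 1 called gene among 13 kept carboxylesterases, beside 1.14% of all genes called higher. Slc22a7, the organic anion transporter OAT2, measured 17.2, 17.5 and 24.6 FPKM in GT livers, against 8.26, 6.64 and 3.00 FPKM in HFD livers and 13.3, 9.40 and 12.4 FPKM in ND livers (log2 change 1.64 ± 0.28, adjusted p = 0.0144). Abcc3, an export pump for conjugates and bile acids, was lower (log2 change -0.73 ± 0.18, adjusted p = 0.0441). Of the 10 calls named among these detoxification and transport genes, 8 ended without HFD 2 (adjusted p 0.052 to 0.183), 6 without HFD 3 (0.0578 to 0.0912) and 4 without GT 2 (0.107 to 0.166). With the length and GC correction those for Cyp2c54, Ftl1 and Gsta1 ended (0.0524 to 0.0919).

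Acute phase proteins, which the liver secretes under inflammatory signals, included genes lower in GT livers, with hepcidin as the exception. Of 27 kept genes 6 were called lower and 1 higher (beside 4.22% and 1.14% of all genes), and the median log2 change was -0.41. Saa1, serum amyloid A, measured 59.7, 31.8 and 28.3 FPKM in GT livers, against 102, 140.5 and 118 FPKM in HFD livers and 26.9, 30.8 and 23 FPKM in ND livers. GT 2 and GT 3 were near the ND level and GT 1 lay between ND and HFD livers (log2 change -1.63 ± 0.26, adjusted p = 0.0101). Saa2 fell alongside (log2 change -1.73 ± 0.35, adjusted p = 0.0246), as did the orosomucoids Orm2 (log2 change -1.90 ± 0.37, adjusted p = 0.0209) and Orm3 (log2 change -1.50 ± 0.24, adjusted p = 0.0112); the Saa and Orm genes each have close copies.

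Hamp, the iron hormone hepcidin, went the other way, at 777, 1406 and 1047 FPKM in GT livers, against 483, 152 and 159.9 FPKM in HFD livers and 474, 758 and 318 FPKM in ND livers. GT livers exceeded both other diets without overlap (log2 change 2.20 ± 0.44, adjusted p = 0.0246). Among 21 kept genes of iron and metal handling, Hamp was the 1 called higher and Ftl1 the 1 called lower (beside 1.14% and 4.22% of all genes). In complement and coagulation, 5 of 31 kept genes were called higher (beside 1.14% of all genes) and 0 lower. Among the 5 were F11, coagulation factor XI (log2 change 0.72 ± 0.18, adjusted p = 0.0468), and the complement genes above. The list's median was 0.06, and with equal FPKM totals 2 were called higher. All 6 acute phase and coagulation calls named in this and the preceding paragraph ended without HFD 2 (adjusted p 0.0587 to 0.175), and all but Saa1 ended without HFD 3.

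Many macrophage and matrix genes were lower in GT livers, and so were summed markers of the cells that make them. The 7 macrophage markers summed to 36.5 to 62.5 FPKM in GT livers, against 66.9 to 94.7 FPKM in HFD livers and 59.5 to 76.4 FPKM in ND livers. Singly, Clec4f, C1qa and Cd68 did not overlap between GT and HFD livers, while Adgre1, Csf1r, Vsig4 and Timd4 did. For comparison with this and the splits below, 18.2% of all genes did not overlap with GT livers lower. The 4 stellate cell markers, 1 of which was at 0 in every library, summed to 6.21 to 10.2 FPKM in GT livers, against 13.8 to 21.6 FPKM in HFD livers and 12.0 to 16.0 FPKM in ND livers. Of these markers Col1a1, itself a matrix gene, did not overlap between GT and HFD livers, while Reln and Des did. Des was highest in the muscle-rich HFD 2, at 4.16 FPKM. In bulk tissue, fewer cells of a type and less RNA per cell cannot be told apart. The 4 bile duct markers summed to 1.46 to 1.74 FPKM in GT livers, against 2.13 to 3.21 FPKM in HFD livers and 2.13 to 2.36 FPKM in ND livers. Of these, Krt19 and Epcam did not overlap between GT and HFD livers, while Krt7 and Sox9 did. All 4 were weak, reaching at most 1.20 FPKM (Sox9 in GT 2). The 5 endothelial markers overlapped, with sums of 8.07 to 8.87 FPKM in GT livers, against 7.73 to 14.6 FPKM in HFD livers. The 3 red blood cell markers summed to 83.6 to 146 FPKM in GT livers, against 136 to 224 FPKM in HFD livers, with a small overlap. Among them Hba-a1 did not overlap between GT and HFD livers, while Hbb-bs and Alas2 did. The part of cell number or of residual blood in the changes below was not tested.

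**Figure D4:**
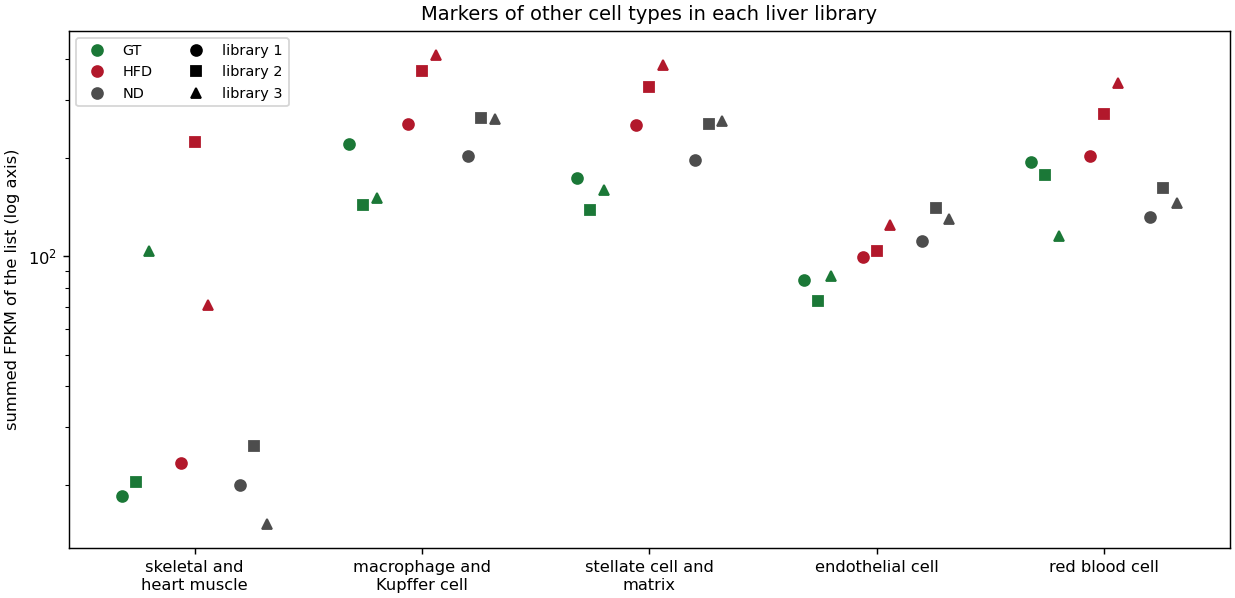
Summed FPKM (log y axis) of 5 cell type gene lists in each of the 9 liver libraries, with GT in green, HFD in red and ND in grey and 1 symbol per library number. The muscle list is high in GT 3, HFD 2 and HFD 3, and every GT library is below every HFD library for the macrophage, matrix and endothelial lists.

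Of 25 macrophage and Kupffer cell genes 21 were kept, 7 were called lower and 0 higher (beside 4.22% of all genes called lower), and the median log2 change was -0.81. With the length and GC correction 4 were called lower and the median was -0.58, and with equal FPKM totals 3 were. Without both HFD 2 and GT 3, 1 was called lower and the median was -0.7. Cd63, a tetraspanin of lysosomes, measured 4.26, 2.30 and 3.37 FPKM in GT livers, against 10.1, 20.0 and 24.1 FPKM in HFD livers and 3.27, 7.61 and 4.82 FPKM in ND livers (log2 change -2.09 ± 0.33, adjusted p = 0.00968). Cd9, another tetraspanin, measured 5.55, 4.95 and 5.20 FPKM in GT livers, against 10.8, 14 and 21.7 FPKM in HFD livers and 10.6, 10.9 and 10.5 FPKM in ND livers, and its GT livers were below those of both other diets (log2 change -1.35 ± 0.21, adjusted p = 0.00961). Spp1, which encodes osteopontin, measured 27.9, 24.1 and 16.2 FPKM in GT livers, against 48.9, 73.1 and 109 FPKM in HFD livers and 31.1, 41.8 and 30.1 FPKM in ND livers, with HFD 3 highest (log2 change -1.68 ± 0.29, adjusted p = 0.0144). Spp1 was also the 1 called gene of 4 kept bile duct genes, beside 4.22% of all genes called lower. Mmp12, the macrophage elastase, was weak in every library, at 0.084 to 0.580 FPKM in GT livers, against 1.23 to 3.30 FPKM in HFD livers (log2 change -1.11 ± 0.25, adjusted p = 0.0327).

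Signals that recruit or shape these cells were called in 2 of 11 kept chemokine and cytokine genes, both lower (beside 4.22% of all genes). Ccl2, the monocyte chemoattractant, measured 0.950, 0.549 and 0.154 FPKM in GT livers, against 2.48, 3.42 and 2.09 FPKM in HFD livers (log2 change -1.26 ± 0.22, adjusted p = 0.0150). Tgfb1, the main profibrotic cytokine, had a log2 change of -0.82 ± 0.19, adjusted p = 0.0364, and Cxcl10 did not pass (log2 change -0.77 ± 0.22, adjusted p = 0.0695). Among 6 kept genes of other leukocytes, 1 was called lower (beside 4.22% of all genes), Ighm, the heavy chain of IgM (log2 change -0.92 ± 0.23, adjusted p = 0.0468). Of 25 interferon-induced genes 1 was called lower, beside the same share of all genes, and the list's median was 0.08. This was Ifi27l2a, at 7.82, 5.11 and 10.8 FPKM in GT livers, against 14.6, 26.8 and 18.5 FPKM in HFD livers (log2 change -1.24 ± 0.28, adjusted p = 0.0329).

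The matrix list had the most calls of any list. Of 30 listed genes 20 were kept, and 12 were called lower and 0 higher, beside 4.22% of all genes called lower. All 20 had a negative change, and the median was -0.89. With equal FPKM totals 6 were called lower. Without both HFD 2 and GT 3, 3 were called lower and the median was -0.89. Sparc, a collagen-binding matrix protein, measured 12.5, 10.2 and 8.67 FPKM in GT livers, against 23.8, 29.8 and 36 FPKM in HFD livers and 11.4, 16 and 15.9 FPKM in ND livers (log2 change -1.42 ± 0.20, adjusted p = 0.00721). Col3a1, the alpha chain of type III collagen, measured 3.53, 1.72 and 2.51 FPKM in GT livers, against 7.15, 14.3 and 19.6 FPKM in HFD livers and 2.41, 3.39 and 3.59 FPKM in ND livers, and GT livers overlapped the ND range (log2 change -1.96 ± 0.31, adjusted p = 0.00968). Tagln, a smooth muscle actin-binding protein, had a log2 change of -0.91 ± 0.16, adjusted p = 0.0144, and Col14a1, a fibril-associated collagen, had one of -1.15 ± 0.20, adjusted p = 0.0149.

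Endothelial genes had 0 calls by limma among 17 kept, with 2 at an unadjusted p under 0.05 and a median of -0.28. Anxa2, a calcium-dependent membrane protein of many cell types, measured 15.5, 8.13 and 6.52 FPKM in GT livers, against 29.6, 36.1 and 58.7 FPKM in HFD livers and 7.67, 10.1 and 6.78 FPKM in ND livers (log2 change -1.97 ± 0.31, adjusted p = 0.00974). The globins Hba-a1 and Hba-a2, near-identical copies, were lower too (log2 changes -1.26 ± 0.26, adjusted p = 0.0258, and -1.27 ± 0.26, adjusted p = 0.0254). They were 2 of 6 kept red blood cell genes, beside 4.22% of all genes called lower. Of the 15 calls named for macrophage, matrix, cytokine and blood genes, 14 ended without HFD 2 (adjusted p 0.0513 to 0.172), 9 without HFD 3 and 7 without GT 2. Without both HFD 2 and GT 3, which had the most muscle transcript, 11 of the 15 ended (adjusted p 0.0546 to 0.101). The calls for Hba-a1, Hba-a2, Ifi27l2a, Ighm, Mmp12 and Tgfb1 ended with the length and GC correction (0.0539 to 0.0904). Only Sparc was called in each of the 9 fits. Without HFD 2 the matrix list kept 1 call with a median of -0.97, and limma called 0 of the macrophage list (12 at an unadjusted p under 0.05) with a median of -0.67.

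**Figure D5:**
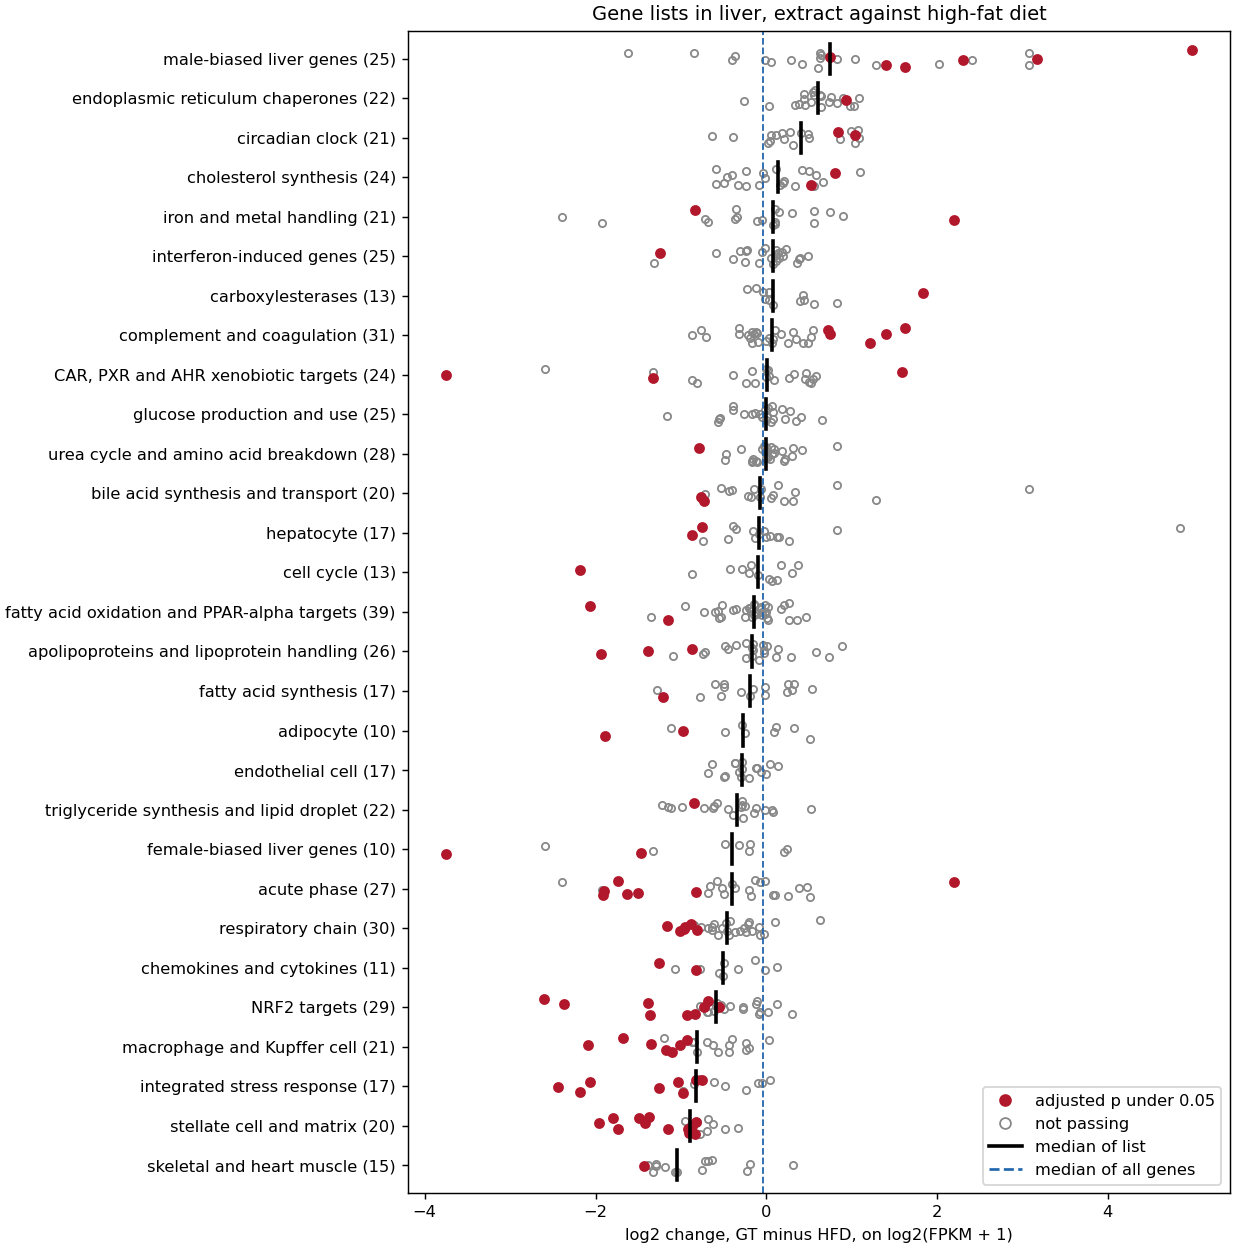
Log2 change, GT minus HFD (x axis, on log2(FPKM + 1)), of the kept members of each gene list with at least 10 kept genes (rows, number kept in parentheses, ordered by median); red points passed an adjusted p of 0.05, black bars are list medians and the dashed line is the median of all genes. Stress, matrix, macrophage and NRF2 lists have medians from -0.89 to -0.59, and the male-biased list has the highest, 0.74.

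Genes of lipid metabolism were called about as often as all genes, of which 5.36% were called. In fatty acid synthesis, 1 of 17 kept genes was called lower and the median was -0.20. The called gene was Elovl5, an elongase of polyunsaturated fatty acids, at 254, 206 and 126 FPKM in GT livers, against 408, 370.4 and 542 FPKM in HFD livers and 522, 436 and 473 FPKM in ND livers (log2 change -1.21 ± 0.25, adjusted p = 0.0258). GT livers were below those of both other diets. Fasn, fatty acid synthase, overlapped between diets, at 57.6, 33.5 and 60.1 FPKM in GT livers, against 49.6, 72.4 and 98.5 FPKM in HFD livers, and 15.5, 21.2 and 20.3 FPKM in ND livers (log2 change -0.53 ± 0.28, adjusted p = 0.281). Scd1, the desaturase, ranged widely within GT livers, at 1806, 658 and 301 FPKM in GT livers, against 2099.5, 1238 and 1958 FPKM in HFD livers (log2 change -1.28 ± 0.54, adjusted p = 0.189). Srebf1, the transcription factor SREBP-1, had a log2 change of 0.54 ± 0.22, adjusted p = 0.178. The acetyl-CoA carboxylases Acaca (log2 change -0.01 ± 0.16, adjusted p = 0.973) and Acacb (log2 change -0.49 ± 0.16, adjusted p = 0.0995) did not pass either.

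In the triglyceride and lipid droplet list, 1 of 22 kept genes was called, and the median was -0.34. Plin5, a droplet coat protein, measured 30.0, 26 and 19.1 FPKM in GT livers, against 50.3, 37.8 and 47.6 FPKM in HFD livers and 61.2, 46.5 and 41.4 FPKM in ND livers (log2 change -0.84 ± 0.21, adjusted p = 0.0452). G0s2, an inhibitor of triglyceride lipase, missed the threshold (log2 change -0.99 ± 0.28, adjusted p = 0.0634), as did Mogat1, a monoacylglycerol acyltransferase (log2 change -1.22 ± 0.46, adjusted p = 0.141), and Cd36, a fatty acid transporter (log2 change -0.54 ± 0.37, adjusted p = 0.406). Pparg, which drives lipid storage genes, had a log2 change of -0.29 ± 0.20, adjusted p = 0.428.

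Fatty acid oxidation and PPAR-alpha targets had 2 calls, both lower, in 39 kept genes, and a median of -0.14 that turned to 0.01 with equal totals and to 0.11 without the 2 muscle-rich livers. The calls were Fgf21 and Acot4, a peroxisomal thioesterase (log2 change -1.15 ± 0.28, adjusted p = 0.0431). Acot2 (log2 change -0.95 ± 0.25, adjusted p = 0.0507) and the pyruvate dehydrogenase kinase Pdk4 (log2 change -1.36 ± 0.36, adjusted p = 0.0520) fell just short. Ppara, the receptor itself, had a log2 change of 0.36 ± 0.22, adjusted p = 0.355, and Cpt1a, the gate of mitochondrial import, had one of -0.01 ± 0.24, adjusted p = 0.982.

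The fatty acid carrier Fabp4, made by adipocytes and macrophages, measured 10.9, 5.49 and 10.0 FPKM in GT livers, against 35.7, 30.2 and 36.7 FPKM in HFD livers and 9.73, 9.89 and 6.53 FPKM in ND livers. GT livers were at the ND level (log2 change -1.89 ± 0.24, adjusted p = 0.00527), and the call held in each of the 9 fits. The adipocyte genes Adipoq, Lep and Plin1 were at 1.40, 0.723 and 0.399 FPKM in HFD 1 and at 0 in HFD 2. In HFD 3, Adipoq was at 0.174 FPKM and Lep and Plin1 were at 0. The part of adipose tissue RNA in the Fabp4 change was not tested. Lpl, lipoprotein lipase, measured 3.21, 1.60 and 2.03 FPKM in GT livers, against 4.59, 5.57 and 5.84 FPKM in HFD livers (log2 change -0.97 ± 0.19, adjusted p = 0.0232). These made 2 calls among 10 kept adipocyte genes, beside 4.22% of all genes called lower. The adipocyte list's median was -0.27. Of the 5 lipid calls named besides Fgf21, all but Fabp4 ended without HFD 2, without HFD 3 and without GT 2 (adjusted p up to 0.124). Acot4 (0.0539) and Plin5 (0.116) also ended with the length and GC correction.

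Cholesterol synthesis had 2 calls among 24 kept genes, both higher (beside 1.14% of all genes), with a median of 0.14. Stard4, an intracellular sterol carrier, measured 19.8, 23.7 and 18.8 FPKM in GT livers, against 12.2, 11.7 and 10.4 FPKM in HFD livers and 11.1, 10.2 and 15.6 FPKM in ND livers, with GT livers above both other diets (log2 change 0.80 ± 0.18, adjusted p = 0.0311). Mvk, mevalonate kinase, measured 8.76, 8.60 and 9.88 FPKM in GT livers, against 5.38, 6.31 and 6.39 FPKM in HFD livers (log2 change 0.52 ± 0.13, adjusted p = 0.0474). Lss, lanosterol synthase, did not pass (log2 change 1.09 ± 0.37, adjusted p = 0.108).

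In bile acid synthesis and transport, 2 of 20 kept genes were called lower (beside 4.22% of all genes), Abcc3 and Cyp8b1. The list's median of -0.07 became 0.08 with equal totals. Cyp8b1, the enzyme that makes cholic acid, measured 381, 315 and 254 FPKM in GT livers, against 579.5, 524 and 488 FPKM in HFD livers and 585, 575 and 558 FPKM in ND livers (log2 change -0.76 ± 0.17, adjusted p = 0.0347). Cyp7a1, the rate-limiting enzyme of bile acid synthesis, measured 50.6, 46 and 99.4 FPKM in GT livers, against 95.2, 58.8 and 97.4 FPKM in HFD livers and overlapped (log2 change -0.41 ± 0.30, adjusted p = 0.441). Without HFD 2 and GT 3, Cyp7a1 had a log2 change of -0.98 (adjusted p = 0.0333). HFD 2 was its lowest HFD liver and GT 3 its highest GT liver, and the log2 change was -0.64 without HFD 2 alone and -0.75 without GT 3 alone, neither called.

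Apolipoproteins gave 3 calls, all lower (beside 4.22% of all genes), among 26 kept genes, and a median of -0.16 that was -0.02 with equal totals. With equal totals Apoc2 was the 1 call, and with the length and GC correction 1 was called lower (Apoc2) and 1 higher (the sterol exporter Abcg5). Apoc2, the cofactor of lipoprotein lipase, measured 322, 270.1 and 261 FPKM in GT livers, against 599, 777 and 869 FPKM in HFD livers and 303, 384 and 305 FPKM in ND livers. GT livers were at the ND level (log2 change -1.38 ± 0.18, adjusted p = 0.00652), and the call held in each of the 9 fits. Apoa4 ranged widely and GT 1 overlapped HFD 1, at 322, 132 and 95 FPKM in GT livers, against 314, 694 and 1058 FPKM in HFD livers (log2 change -1.94 ± 0.47, adjusted p = 0.0429). Apoa2, an abundant component of high-density lipoprotein, had a log2 change of -0.87 ± 0.22, adjusted p = 0.0455, and Ttr, the thyroid hormone carrier transthyretin, had one of -0.75 ± 0.18, adjusted p = 0.0429. These last were the 2 calls among 17 kept hepatocyte genes, beside 4.22% of all genes called lower. The hepatocyte list's median was -0.09, or 0.06 with equal totals. With the length and GC correction the calls for Cyp8b1, Apoa4, Apoa2 and Ttr ended (adjusted p 0.0524 to 0.0964). Of the 7 sterol, bile acid and lipoprotein calls named besides Abcc3, that for Apoc2 held, and the other 6 ended without HFD 2 (adjusted p 0.124 to 0.192), without HFD 3 (0.0769 to 0.115) and without GT 2 (0.097 to 0.15).

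Glucose metabolism had 0 calls among 25 kept genes by limma, with 4 at an unadjusted p under 0.05, and the median was 0.00. Pck1, which commits carbon to glucose production, measured 390.3, 316 and 709 FPKM in GT livers, against 482, 362 and 588 FPKM in HFD livers and 1190.3, 917 and 1515 FPKM in ND livers, so all high-fat livers were below ND livers while GT and HFD livers overlapped (log2 change -0.08 ± 0.30, adjusted p = 0.908). G6pc, glucose-6-phosphatase, overlapped likewise (log2 change -0.39 ± 0.30, adjusted p = 0.475). Igfbp1, a hepatic binding protein that insulin represses, had a log2 change of -1.17 ± 0.45, adjusted p = 0.147. Lepr, the leptin receptor, measured 0.352, 0.555 and 0.229 FPKM in GT livers, against 0.862, 0.886 and 0.689 FPKM in HFD livers and 14, 7.81 and 12.7 FPKM in ND livers, and Cfd, adipsin, measured 191, 131 and 202 FPKM in GT livers, against 193, 162 and 54.7 FPKM in HFD livers and 1.78, 3.11 and 0.720 FPKM in ND livers. In both genes GT and HFD livers lay on the same side of ND livers (log2 changes -0.40 ± 0.20, adjusted p = 0.248, and 0.51 ± 0.44, adjusted p = 0.514).

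In the urea cycle and amino acid breakdown, 1 of 28 kept genes was called (beside 5.36% of all genes) and the median was 0.00. Sds, serine dehydratase, was lower (log2 change -0.79 ± 0.19, adjusted p = 0.0440), and the call ended without HFD 2 (adjusted p = 0.167) and with the length and GC correction (0.14). Cps1, the first enzyme of the urea cycle, measured 254, 335 and 159.7 FPKM in GT livers, against 156, 102 and 152 FPKM in HFD livers (log2 change 0.83 ± 0.27, adjusted p = 0.0925). Its GT livers were scattered more than its HFD livers.

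Most circadian clock genes had positive changes. Of 21 kept genes 2 were called higher (beside 1.14% of all genes called higher) and 19 had a positive change (beside 45.1% of all genes), with a median of 0.41. With equal FPKM totals 1 was called, and without HFD 2 limma called 0 (7 at an unadjusted p under 0.05). Cry2, a repressor of the clock and 1 of the 2, measured 13.5, 14.3 and 10.9 FPKM in GT livers, against 6.28, 7.27 and 6.78 FPKM in HFD livers and 9.61, 8.32 and 13.5 FPKM in ND livers (log2 change 0.83 ± 0.18, adjusted p = 0.0311). Per3 (log2 change 1.09 ± 0.32, adjusted p = 0.0749) and the clock-output factor Tef (log2 change 0.86 ± 0.24, adjusted p = 0.0613) did not pass. The time of day of collection is not given in the labels and cannot be told apart from diet here.

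Some subunits of the respiratory chain, which are encoded by short transcripts, were lower. Of 30 kept genes 6 were called lower and 0 higher, beside 4.22% of all genes called lower. Their list had a median log2 change of -0.46 and a median transcript length of 788 bases. Cox6c, a subunit of cytochrome oxidase, measured 357, 346 and 451 FPKM in GT livers, against 705, 849 and 685 FPKM in HFD livers and 298, 473 and 348 FPKM in ND livers (log2 change -0.96 ± 0.20, adjusted p = 0.0264). Uqcrq, a subunit of complex III, measured 269, 271 and 442 FPKM in GT livers, against 613, 893 and 668 FPKM in HFD livers and 218, 322 and 220.4 FPKM in ND livers (log2 change -1.17 ± 0.24, adjusted p = 0.0270), and Cox8a and Cox5a had log2 changes of -0.89 and -0.95 (adjusted p = 0.0247 and 0.0270). GT livers were near ND livers for each of these. With the length and GC correction limma called 0 of the 30 (10 at an unadjusted p under 0.05) and the median was -0.27, and without HFD 2 it also called 0 (12 at an unadjusted p under 0.05). With equal FPKM totals 3 were called lower.

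Cox7a1, the muscle form of a cytochrome oxidase subunit, measured 3.39, 3.55 and 4.68 FPKM in GT livers, against 7.29, 18.4 and 13 FPKM in HFD livers and 3.57, 1.68 and 1.63 FPKM in ND livers (log2 change -1.44 ± 0.30, adjusted p = 0.0276). HFD 1, with muscle markers near 0, was above every GT liver, and the higher values of HFD 2 and HFD 3 came with muscle markers, whose part in the change was not tested. The call also ended with the length and GC correction (adjusted p = 0.0694). Cox7a1 was the 1 call among 15 kept muscle genes, beside 4.22% of all genes called lower. The muscle list's median of -1.05 became -0.16 without HFD 2. Among 13 kept cell cycle genes the 1 call was Cdkn1a, also lower and beside the same share, and the list's median was -0.10. The pancreas list had 1 kept gene, not called. Of the 6 clock and mitochondrial calls named in these paragraphs, all ended without HFD 2 (adjusted p 0.111 to 0.132).

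Other genes with large changes belong to none of these lists. Scand1, a small SCAN domain protein, measured 0.566, 1.66 and 2.18 FPKM in GT livers, against 12.2, 23.5 and 14.4 FPKM in HFD livers and 0.730, 0.210 and 0.203 FPKM in ND livers. HFD livers stood far above both other diets (log2 change -2.85 ± 0.29, adjusted p = 0.00244), and the call held in each of the 9 fits. Ly6d, a surface protein, measured 9.21, 3.23 and 2.98 FPKM in GT livers, against 18.7, 73.7 and 98.4 FPKM in HFD livers, and Wfdc2, a secreted protease inhibitor, measured 6.89, 3.33 and 3.31 FPKM in GT livers, against 12.6, 33 and 43.1 FPKM in HFD livers. In both, HFD 2 and HFD 3 were far above HFD 1 (log2 changes -3.25 ± 0.58, adjusted p = 0.0209, and -2.37 ± 0.41, adjusted p = 0.0144). Ifi27l2b, a relative of Ifi27l2a, measured 10.8, 6.23 and 5.90 FPKM in GT livers, against 21.9, 44.5 and 51.3 FPKM in HFD livers (log2 change -2.18 ± 0.31, adjusted p = 0.00728).

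Among the rises, Gbp11, a guanylate-binding protein, measured 12.9, 25.5 and 51 FPKM in GT livers, against 5.79, 5.52 and 5.66 FPKM in HFD livers and 5.80, 6.01 and 5.10 FPKM in ND livers. GT livers spread above HFD and ND livers, which were level (log2 change 2.01 ± 0.35, adjusted p = 0.0149). Nrep, a small regulator first described in neurons, measured 16.3, 25.8 and 36.4 FPKM in GT livers, against 9.21, 9.34 and 5.82 FPKM in HFD livers and 5.55, 5.74 and 4.37 FPKM in ND livers (log2 change 1.53 ± 0.27, adjusted p = 0.0145). Tk1, thymidine kinase, had a log2 change of 1.14 ± 0.29, adjusted p = 0.0468, Apol7d, an apolipoprotein L gene, had one of 1.16 ± 0.29, adjusted p = 0.0447, and Adamtsl2, a matrix protein that binds latent TGF-beta, had one of -1.14 ± 0.29, adjusted p = 0.0472. Of these 9 calls, 8 ended without HFD 2 (adjusted p 0.052 to 0.185), and that for Adamtsl2 ended with the length and GC correction (0.0551).

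The same diets were compared in epididymal adipose tissue, and the liver change minus the adipose change was tested directly. Over 12 libraries and the 10042 genes kept in both tissues, 463 (4.61%) differed between the tissues, 159 of them (1.58%) with the more positive change in liver and 304 (3.03%) with the more negative. The split was 169 and 122 after scaling to equal totals, under which the median difference of all genes was 0.22, against 0.06 as deposited. Of 83 genes named in the text that could be tested, 10 of them chosen for this very difference, 34 were called. Many of the others were named for their liver change, which is part of the difference. Their share of calls is therefore not comparable with that of all genes. The sign of the change was opposite in the tissues for 27 of the 34. Selecting genes by this difference favours opposite signs, so that count describes the named genes only. The adipose changes were not tested on their own, and some were small, such as 0.07 for Atf5. The calls of 15 of the 34 held with any 1 library left out. Whether both tissues came from the same mice is not stated.

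Fgf21 gave the largest difference among the named genes. It measured 2.18, 2.35 and 2.96 FPKM in GT adipose tissue, against 1.05, 0.669 and 0.694 FPKM in HFD adipose tissue, so it was higher there with the extract while it was lower in liver (difference in log2 change -3.02 ± 0.26, adjusted p = 0.000342). Sparc measured 3464, 4432 and 4773 FPKM in GT adipose tissue, against 2456, 2486 and 2761 FPKM in HFD adipose tissue, again higher with the extract (difference -2.13 ± 0.26, adjusted p = 0.00518). Plin5 measured 13.2, 17.6 and 21.8 FPKM in GT adipose tissue, against 6.63, 6.00 and 6.10 FPKM in HFD adipose tissue (difference -2.17 ± 0.28, adjusted p = 0.00518), and Trib3 measured 6.72, 7.66 and 6.38 FPKM in GT adipose tissue, against 4.69, 4.06 and 4.59 FPKM in HFD adipose tissue (difference -1.36 ± 0.18, adjusted p = 0.00518). In all 4 genes the libraries did not overlap in either tissue. Fabp4, the leading adipocyte transcript, measured 17589, 17492 and 17367 FPKM in GT adipose tissue, against 14495, 13621 and 12038 FPKM in HFD adipose tissue (difference -2.28 ± 0.28, adjusted p = 0.00518).

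Gdf15 was low in adipose tissue and overlapped, at 3.87, 2.74 and 2.48 FPKM in GT adipose tissue, against 5.00, 2.97 and 4.43 FPKM in HFD adipose tissue (difference -2.09 ± 0.35, adjusted p = 0.00901). The chaperone Hsp90b1 measured 82.7, 81.4 and 79.4 FPKM in GT adipose tissue, against 112, 118 and 111 FPKM in HFD adipose tissue, so it was lower with the extract there while the liver values were higher (difference 1.46 ± 0.29, adjusted p = 0.0175). Hspa5 measured 252, 227 and 238 FPKM in GT adipose tissue, against 319, 298 and 288 FPKM in HFD adipose tissue (difference 1.10 ± 0.24, adjusted p = 0.0256). The calls for Hsp90b1 and Hspa5 each ended with a library left out (adjusted p up to 0.0588 and 0.0744). The macrophage gene Cd63, which fell in liver, showed no call for a difference (difference -1.44 ± 0.42, adjusted p = 0.0684), nor did Ccl2 (difference -0.14 ± 0.34, adjusted p = 0.834), whose adipose levels were 21.6, 21.7 and 12.6 FPKM in GT adipose tissue, against 39, 34.3 and 49.5 FPKM in HFD adipose tissue. Those p-values do not show that the tissues acted alike.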

How the data were processed

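The liver samples were polyA RNA libraries made with a TruSeq kit, per the labels' protocols, whose extraction text speaks of adipose tissue also for liver. The deposited values are FPKM per gene for 18 libraries. Per the submitters' processing notes, the authors used CASAVA 1.8.2, STAR 2.4.0 and Cufflinks 2.1.1 (genome build: not given in the sources used here). Counts and read depth are not recorded, so no counting interval is given, and multi-copy genes rest on the authors' read assignment. Symbols came from GENCODE M21 for 22671 of 23474 IDs.

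Genes at 1 FPKM in at least 3 of 9 liver libraries were tested with limma 3.58.1 (R 4.3.3) on log2(FPKM + 1), with a mean per diet, trended robust variance and Benjamini-Hochberg adjustment at 0.05. All 9 liver libraries shared 1 variance estimate. The tissue difference was fitted on 12 libraries. The procedure was tested on simulated data: at a log2 change of 1 in 100 of 10670 genes, 62% were recovered for GT against HFD in liver, and 95% at a log2 change of 2. There were 6 false calls. The simulated noise was independent between libraries and genes, without the length trend or muscle RNA of the real libraries. It therefore does not show the recovery in these data. Replicates were compared, and Spearman correlations between liver libraries, of the same and of different diets, were 0.906 to 0.983 with 0 identical pairs. GT 1 and GT 2 correlated at 0.983, but GT 3 stood apart, at 0.946 with GT 1 and 0.934 with GT 2. GT 1 with HFD 1 stood at 0.972.

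The members and the 33 gene lists were chosen with earlier results of these data known. Named genes were the 12 largest rises and 12 largest falls among called genes without overlap between GT and HFD libraries (leaving out predicted, pseudogene, small RNA and mitochondrial entries), up to 4 genes of smallest p per list, 24 set genes, and up to 5 genes each way for the tissue difference; a few genes under these rules are not reported here. Chosen after their values were seen were Trib3, Atf5, Nupr1, Vldlr, Atf3, Chac1, Hsp90b1, Creld2 and Abcg5, the motifs, the promoters and the length and GC correction. Alternatives were another added constant, other filters and scalings, a plain variance prior, a replicate block, GT and HFD libraries alone, and each library left out. Promoter sequences came from RefSeq on GRCm38.p6.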

Additional observations from a re-analysis of the deposited data

Results flagged for a closer look

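For 34 of the named genes the extract's effect differed between liver and epididymal adipose tissue by a test of the difference itself (limma, adjusted p under 0.05). Many of them were named for their liver change, so their number is not comparable with that of all genes. Values below are the log2 change in liver minus the log2 change in adipose tissue.

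The effect in liver was the more negative for these secreted, stress and cell cycle genes: Fgf21 -3.02, Gdf15 -2.09, Cdkn1a -1.67, Trib3 -1.36, Atf5 -1.10 and Orm3 -2.14. It was also the more negative for lipid genes, namely Scd1 -2.55, Mogat1 -2.42, Fabp4 -2.28, Plin5 -2.17, G0s2 -1.57, Pdk4 -1.49, Elovl5 -1.41, Apoc2 -1.35, Lpl -1.34 and Acacb -1.27. The same held for the matrix and membrane genes Adamtsl2 -2.30, Sparc -2.13, Anxa2 -1.76 and Tagln -0.81. Glutathione transferases Gstm2 -1.45 and Gstm1 -1.28, Ifi27l2a -2.60 and Cox7a1 -1.59 completed this direction.

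The effect in liver was the more positive for the chaperone pathway genes Hsp90b1 1.46, Hspa5 1.10, Dnajb11 0.94 and Xbp1 0.87 and the sterol carrier gene Stard4 1.31. It was also the more positive for Zranb3 2.52, Egfr 2.34, Apol7d 2.21, Tk1 2.09 and Nrep 1.98. Zranb3, a DNA repair helicase, was not called in liver (log2 change 0.21 ± 0.15, adjusted p = 0.418) and measured 20.5, 12.6 and 5.48 FPKM in GT adipose tissue, against 53.6, 48.3 and 84.8 FPKM in HFD adipose tissue.

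Calls of 15 genes held with any 1 of the 12 libraries left out: Acacb, Adamtsl2, Apol7d, Fabp4, Fgf21, Gdf15, Ifi27l2a, Nrep, Orm3, Plin5, Sparc, Stard4, Tk1, Trib3 and Zranb3. Of the 34 calls 16 held without adipose HFD 2, 18 without adipose GT 2 and 21 without liver HFD 2, while 25 held with equal FPKM totals and 11 under a replicate block within tissue.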

How the results depend on the processing

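The count of 572 genes called between GT and HFD livers stayed within 1.5 times of that value with 0.1 added in place of 1, a filter at 5 FPKM, quantile scaling and a plain variance prior. It was 262 without a filter, 208 with equal FPKM totals, 173 with GT and HFD libraries alone, 244 without HFD 2 and GT 3, and 367 with the length and GC correction. With 1 library left out it ran from 45 (without HFD 2) to 1223 (without GT 3). The cause of these shifts was not tested, beyond that fits without ND libraries hold fewer samples. The tissue difference, 463 genes, was 291 with equal FPKM totals and 119 to 1375 with 1 library left out.

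Whether replicate numbers mark pairs of liver libraries could not be settled with 3 libraries a group. Deviations from the group means of same-numbered libraries correlated from -0.301 to 0.418 over 9 pairs, 4 of them over 0.1. Differently numbered libraries covered a similar range, from -0.403 to 0.399 over 18 pairs. With the number as a replicate block, 306 genes were called in liver, 277 of them among the 572, and 54 for the tissue difference.

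Directions turned for 5 named genes, none of them called. With equal FPKM totals the log2 change was 0.0456 for Chac1, 0.115 for Acaca, 0.136 for Cpt1a and 0.0731 for Pck1. With quantile scaling it was 0.0252 for Chac1, 0.00623 for Acaca, 0.12 for Cpt1a and 0.157 for Pck1. With the length and GC correction it was 0.139 for Chac1, 0.189 for Acaca and 0.204 for Cpt1a, and without HFD 2 and GT 3 it was 0.0746 for Chac1 and 0.245 for Cpt1a. With 1 library left out, values ran from -0.216 to 0.208 for Chac1, from -0.115 to 0.136 for Acaca, from -0.196 to 0.315 for Cpt1a, from -0.413 to 0.168 for Pck1 and from -0.0422 to 0.856 for Cfd. Over all named genes and settings, 1587 values kept direction and side of the threshold, 512 lost the threshold, 26 gained it and 24 turned direction. With 3 libraries a group, levels near 1 FPKM limit what can be shown.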
